A study of Mus musculus with 53 samples.

Results

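The SOX transcription factors are proteins that bind DNA through a shared HMG box, and 10 of the genes that encode them were followed here: Sox2, Sox4, Sox5, Sox6, Sox8, Sox9, Sox10, Sox11, Sox17 and Sox18. The members were chosen by name, as every probe set whose platform annotation gives 1 of these symbols and no other, which were 29 of 45037 non-control probe sets and 10 of 17097 genes named on the array. Sox11 had 6 probe sets, Sox4 had 5, Sox5 had 4, Sox6, Sox9 and Sox10 had 3 each, Sox17 had 2, and Sox2, Sox8 and Sox18 had 1 each. The fourth Sox5 probe set stayed at the floor of the scale on all 53 arrays and was not tested in any comparison.

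The series models synovial sarcoma, a soft tissue tumor driven by the fusion gene SS18-SSX1, and measured total RNA of 53 samples in 9 groups on GeneChip mouse arrays. The eMC SS18-SSX1 (n = 4) and eMC empty vector (n = 4) groups were embryonic mesenchymal cells of limb soft parts of late-gestation BALB/c embryos, taken 48 h after transduction with a pMYs retrovirus that carried the human fusion gene or no insert, with IRES-GFP. The SS tumors (n = 12) grew under the skin of nude mice, which lack T cells, from eMCs transduced with SS18-SSX1, and the SS214 tumors (n = 13) from eMCs given SS18-SSX1 together with a genomic fragment of mouse miR-214 in place of GFP. The Normal tissue mix (n = 4) pooled RNA of 10 organs, and the cell lines SS40 and SS64, each grown from mouse synovial sarcoma, were transfected with miR-214 (n = 4 each) or with a negative control, NC (n = 4 each). Thus every group but the empty vector and the mix derives from cells given the fusion gene by a retrovirus, each line is a single line, and nothing in the labels says that the 4 replicates of a culture, a line or the mix were separate isolates. p-values there measure only the spread between these samples, which may be technical.

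SOX proteins fall into subfamilies whose members share most of their HMG box and often act redundantly. SOX2, of subgroup B1, keeps pluripotent and neural progenitor cells in their state. SOX4 and SOX11, of subgroup C, are active in embryonic mesenchyme and in young neurons. SOX9 starts cartilage formation and works there with SOX5 and SOX6 of subgroup D, whereas its relatives SOX8 and SOX10 of subgroup E act in neural crest, Schwann cells and melanocytes. SOX17 and SOX18, of subgroup F, are factors of endothelium, and SOX17 also of endoderm.

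Values are log2 intensities of a probe set, so a difference of 1 is a 2-fold difference, and every value was raised to a floor of 3.55 where it lay below it. A probe set was called higher or lower at a Benjamini-Hochberg adjusted p under 0.05 in limma and a fold over 2. Levels of different probe sets cannot be set against each other, and probe sets of a gene are numbered from the brightest over all arrays. All members are shown in the plot of single arrays by group.

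**Figure D1:**
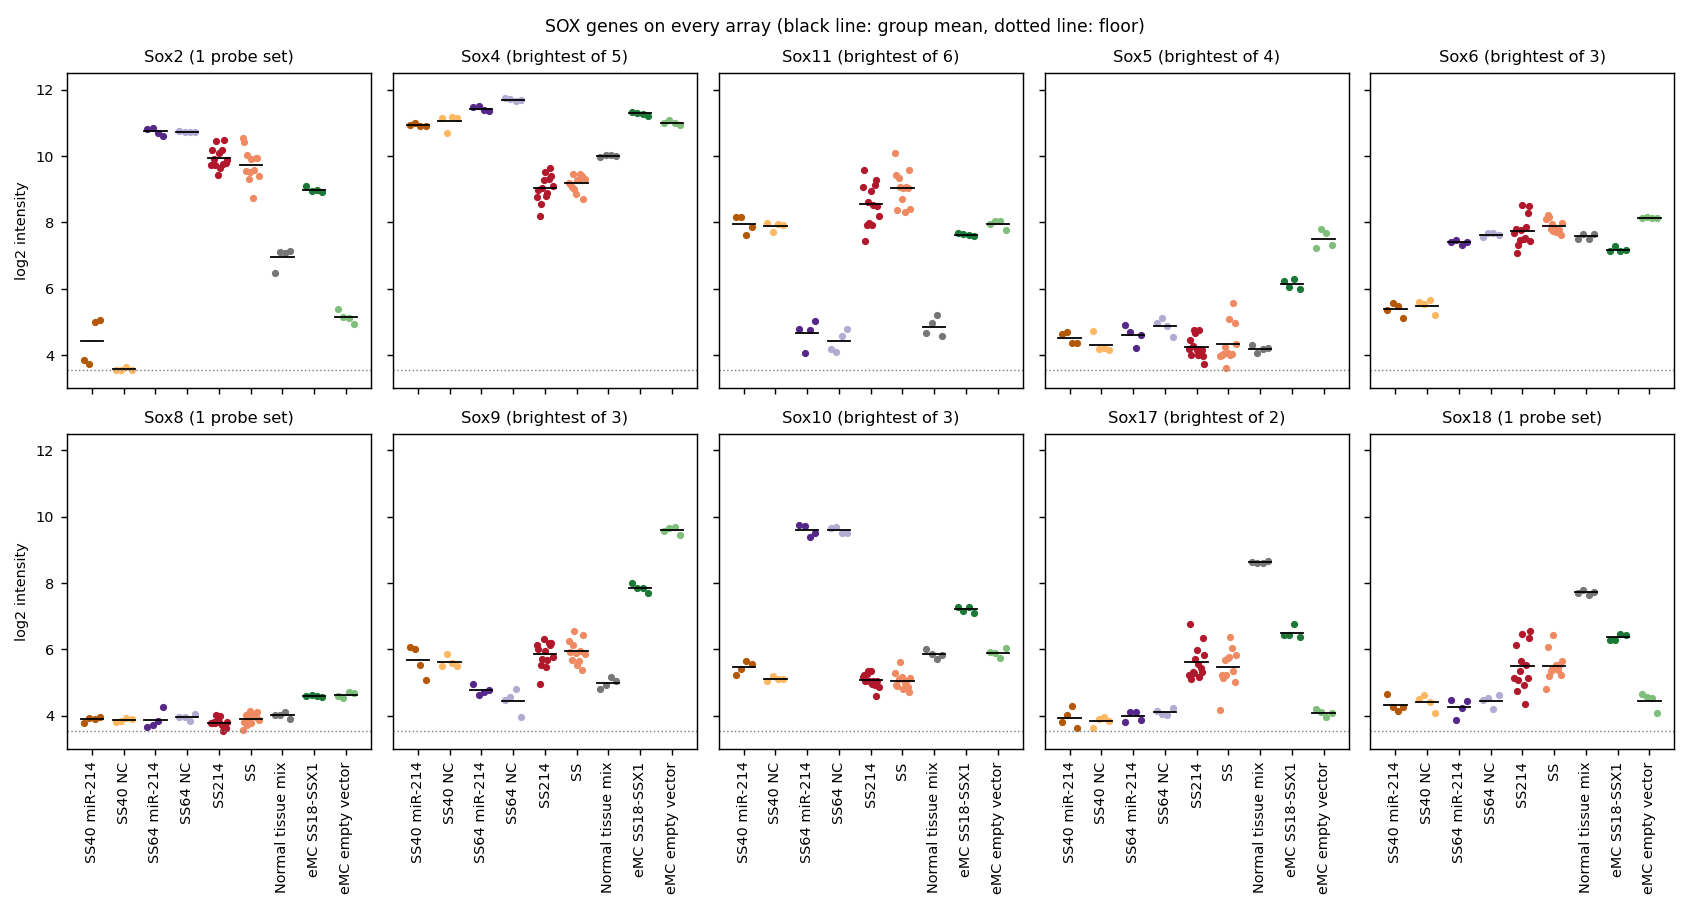
Log2 intensity (vertical axis) of the brightest probe set of each of the 10 SOX genes in every array, by group (horizontal axis); each point is 1 array, the black line is the group mean and the dotted line is the floor of 3.55. Sox2 spans 7.18 between its highest and lowest group mean, the widest of the 10 genes, and Sox8 spans 0.85, the narrowest.

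Promoter windows of Sox2 and Sox5 are shown because these genes changed in opposite directions in eMCs that received the fusion gene. These windows also sit near opposite ends of those given for the family in CpG content. Each line gives the 250 bases before the RefSeq start on build GRCm38.p6, 5′ to 3′ on the strand of the gene, with each CG pair in capitals. The Sox2 window is chr3:34649745-34649994 on the plus strand and the Sox5 window chr6:143947107-143947356 on the minus strand. Sox5 spans chr6:143828425-144782287, so its window lies inside the gene, before an internal start. No window was given at the 5′ end of Sox5, and the CpG content there was not looked at.
Sox2 promoter: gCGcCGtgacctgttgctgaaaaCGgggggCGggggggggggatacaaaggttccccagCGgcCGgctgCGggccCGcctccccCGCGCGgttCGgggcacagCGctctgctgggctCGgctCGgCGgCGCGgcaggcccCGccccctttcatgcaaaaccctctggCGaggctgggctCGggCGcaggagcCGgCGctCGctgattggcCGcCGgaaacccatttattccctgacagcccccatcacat
Sox5 promoter: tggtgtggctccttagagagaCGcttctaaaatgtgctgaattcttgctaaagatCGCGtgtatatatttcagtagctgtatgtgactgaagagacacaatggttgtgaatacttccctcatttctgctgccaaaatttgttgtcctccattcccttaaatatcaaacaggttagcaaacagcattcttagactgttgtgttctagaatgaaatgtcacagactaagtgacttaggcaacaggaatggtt
The Sox2 window held 27 CG pairs with a GC content of 72%, and 8.56% of all 32851 windows of this length held as many or more. The Sox5 window held 3 CG pairs with a GC content of 39.6%, and 37.8% of windows held as many or fewer, against a median of 6. A SOX core motif, searched as ACAAT and its reverse complement ATTGT, was found 0 times in the Sox2 window and 1 time in the Sox5 window, and 27.7% of all windows held it. A CG pair was present in 92.1% of windows. A window was given for 6 of the 10 members (11 windows in all, since Sox6 had several starts), and Sox11 held 17, Sox8 held 18, Sox4 held 11 and the Sox6 windows held 1 to 10 CG pairs.

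Both mature arms of the microRNA that the study added are shown next, since a microRNA acts through pairing of its seed with target transcripts. Each is given 5′ to 3′ with the seed, bases 2 to 8, in capitals, from RefSeq on GRCm38.p6, where they lie at chr1:162223397-162223418 and chr1:162223438-162223459 on the plus strand.
mmu-miR-214-5p: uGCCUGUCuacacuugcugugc
mmu-miR-214-3p: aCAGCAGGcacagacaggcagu
The seeds of the 2 arms differ from each other. No target site of either was searched for in the SOX transcripts.

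The first comparison asked which SOX genes differed in eMCs 48 h after they received SS18-SSX1. Sox2, Sox10, Sox17 and Sox18 were higher and Sox5, Sox6 and Sox9 were lower, that is, factors known from pluripotent cells, neural crest and endothelium on one side and the cartilage trio on the other. Of the 28 SOX probe sets tested, 8 were called (28.6%), 4 higher and 4 lower, against 2.59% of all probe sets tested. In each of the 8 the 4 eMC SS18-SSX1 arrays and the 4 eMC empty vector arrays did not overlap. The share of all probe sets without overlap was not counted, here and below. Such counts therefore describe the members and do not set them apart from other genes.

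Sox2 had the largest difference of the 28. It measured 9.10, 8.93, 8.98 and 8.91 in eMC SS18-SSX1 and 5.38, 5.13, 5.13 and 4.93 in eMC empty vector. The groups were far apart and no array overlapped. The log2 difference was 3.84 (SE 0.08, adjusted p = 1.1e-14, limma), or 14.3-fold higher. None of the 7 tested genes of a pluripotency list was called, with Pou5f1, the partner of SOX2 in embryonic stem cells, at the floor in every group, and none of 8 neural progenitor genes was called.

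Sox17 and Sox18 rose together. Sox17 measured 6.45, 6.42, 6.77 and 6.38 in eMC SS18-SSX1 and 4.21, 4.10, 3.97 and 4.08 in eMC empty vector, a log2 difference of 2.41 (SE 0.09, adjusted p = 1.4e-11, limma) or 5.33-fold. This probe set carries an x in its name, which in the array's naming marks probes that may bind other transcripts. The second Sox17 probe set measured 5.23, 4.93, 4.83 and 4.92 in eMC SS18-SSX1 and 4.21, 3.95, 4.05 and 4.06 in eMC empty vector, again without overlap, and its difference of 0.91 (adjusted p = 1.1e-06) was under 2-fold. Sox18 measured 6.27, 6.30, 6.47 and 6.42 in eMC SS18-SSX1 and 4.64, 4.56, 4.54 and 4.07 in eMC empty vector, a difference of 1.91 (SE 0.11, adjusted p = 1.6e-09) or 3.76-fold. Both genes were thus above the whole range of the empty vector arrays.

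Endothelial genes stood higher in the same arrays. Of 15 endothelial genes, 8 were called higher and 0 lower, with a median difference of 1.26 where the median over all genes was close to 0, and 3.65% of all genes by their brightest probe set were called. Emcn, an endothelial surface sialomucin, differed by 3.54, Cldn5, a tight junction protein of vessels, by 3.09, and Cdh5, the cadherin of endothelial junctions, by 2.73. The summed intensity of the list was 2929 to 4477 in eMC SS18-SSX1 and 1741 to 1997 in eMC empty vector. Of the defining markers, Cdh5 averaged 6.31 in eMC SS18-SSX1 and 3.58, at the floor or near it, in eMC empty vector, and Tie1 averaged 3.81 in eMC SS18-SSX1 and 3.55 in eMC empty vector. Whether these genes belong to the cells that raised Sox17 and Sox18 was not tested, and in RNA of a whole sample more cells of a type and more RNA per cell cannot be told apart, here and below. Skeletal muscle genes stood higher in these arrays as well, with 7 of 18 called higher and 0 lower (median 0.83), led by Tnnc2 with 2.95, Mylpf with 2.52 and Acta1 with 2.17, all of the contractile apparatus. Their summed intensity was 2992 to 3152 in eMC SS18-SSX1 and 907 to 964 in eMC empty vector. Reln, of the lymphatic list that SOX18 is known to act in, was the 1 of 4 genes called, with 2.67. Sox7, the other endothelial SOX gene, averaged 5.55 in eMC SS18-SSX1 and 4.76 in eMC empty vector, a difference of 0.79 (adjusted p = 3.3e-06) under 2-fold, and 0 of 8 other SOX genes tested were called.

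Sox10 measured 7.29, 7.17, 7.28 and 7.09 in eMC SS18-SSX1 and 5.92, 5.88, 5.75 and 6.06 in eMC empty vector. The groups did not overlap, and the difference was 1.31 (SE 0.07, adjusted p = 9.8e-10, limma) or 2.47-fold. Sox10 probe sets 2 and 3 differed by 0.13 (adjusted p = 0.21) and 0.00 (adjusted p = 1.0), so the rise was seen by 1 of 3 probe sets. Of 12 Schwann and glial genes, 5 were called higher and 1 lower. The largest were Erbb3, a neuregulin receptor of Schwann cells, with 9.07 in eMC SS18-SSX1 and 5.93 in eMC empty vector, and Ngfr, the p75 neurotrophin receptor of neural crest, with 8.95 in eMC SS18-SSX1 and 6.02 in eMC empty vector. Foxd3, a neural crest factor, differed by 1.98. The 1 called lower was S100b, a glial calcium binding protein, with 8.41 in eMC SS18-SSX1 and 9.65 in eMC empty vector. Of 7 melanocyte genes, 2 were higher, Ednrb with 2.38 and Kit with 1.55. Sox8 averaged 4.59 in eMC SS18-SSX1 and 4.64 in eMC empty vector and was not called (adjusted p = 0.62).

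The SOX genes of cartilage fell. Sox9, the master factor of chondrocytes, measured 7.99, 7.85, 7.87 and 7.69 in eMC SS18-SSX1 and 9.58, 9.67, 9.70 and 9.44 in eMC empty vector. The arrays did not overlap, and the difference was -1.75 (SE 0.06, adjusted p = 4.1e-12, limma), or 3.36-fold lower. The second Sox9 probe set differed by -1.56, and the third, faint in all groups, by -0.37. Sox5 measured 6.23, 6.04, 6.28 and 6.00 in eMC SS18-SSX1 and 7.23, 7.81, 7.68 and 7.33 in eMC empty vector, a difference of -1.37 (SE 0.11, adjusted p = 6.5e-08) or 2.59-fold lower. Sox6 measured 7.13, 7.27, 7.15 and 7.16 in eMC SS18-SSX1 and 8.14, 8.16, 8.15 and 8.14 in eMC empty vector on its brightest probe set, a difference of -0.97 (adjusted p = 9.6e-11) just under 2-fold. Its second probe set passed with -1.23 (SE 0.11, adjusted p = 2.0e-07). On its brightest probe set each gene of the trio was lower in every eMC SS18-SSX1 array than in any empty vector array. The other Sox5 probe sets tested overlapped between the groups, with -0.25 (adjusted p = 0.038) on probe set 2 and 0.10 (adjusted p = 0.19) on probe set 3, as did Sox9 probe set 3.

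The genes that SOX9, SOX5 and SOX6 act on in cartilage went the same way. Of 20 such genes, 0 were higher and 13 lower, with a median difference of -1.17. Col11a2, a collagen of the cartilage matrix, differed by -2.26, and Acan, the large proteoglycan of cartilage, by -1.59. The eMC empty vector cells held high levels of this list, with Col2a1 at 13.04 on average, so cartilage genes were part of what the label calls mesenchymal cells. The summed intensity of the list was 27507 to 28085 in eMC SS18-SSX1 and 50966 to 51910 in eMC empty vector.

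Sox4 and Sox11 were not called at 48 h. Sox11 measured 7.68, 7.65, 7.61 and 7.60 in eMC SS18-SSX1 and 7.95, 8.05, 8.03 and 7.78 in eMC empty vector, a difference of -0.32 (adjusted p = 0.00028, limma). Sox4 measured 11.34, 11.31, 11.28 and 11.22 in eMC SS18-SSX1 and 10.99, 11.09, 11.01 and 10.93 in eMC empty vector, a difference of 0.28 (adjusted p = 2.0e-06). Both differences exceeded the spread between the arrays and both were under 2-fold. Sox4 probe sets 2 and 3 differed by 0.19 and 0.46. Probe set 5 averaged 5.70 in eMC SS18-SSX1 and 5.07 in eMC empty vector. Probe set 4 of Sox4 went the other way, with -0.29 (adjusted p = 0.0074, limma) and no overlap. Of 9 immature neuron genes, a group that SOX4 and SOX11 are known to act on, Gap43 was called with 3.71 and the other 8 were not.

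**Figure D2:**
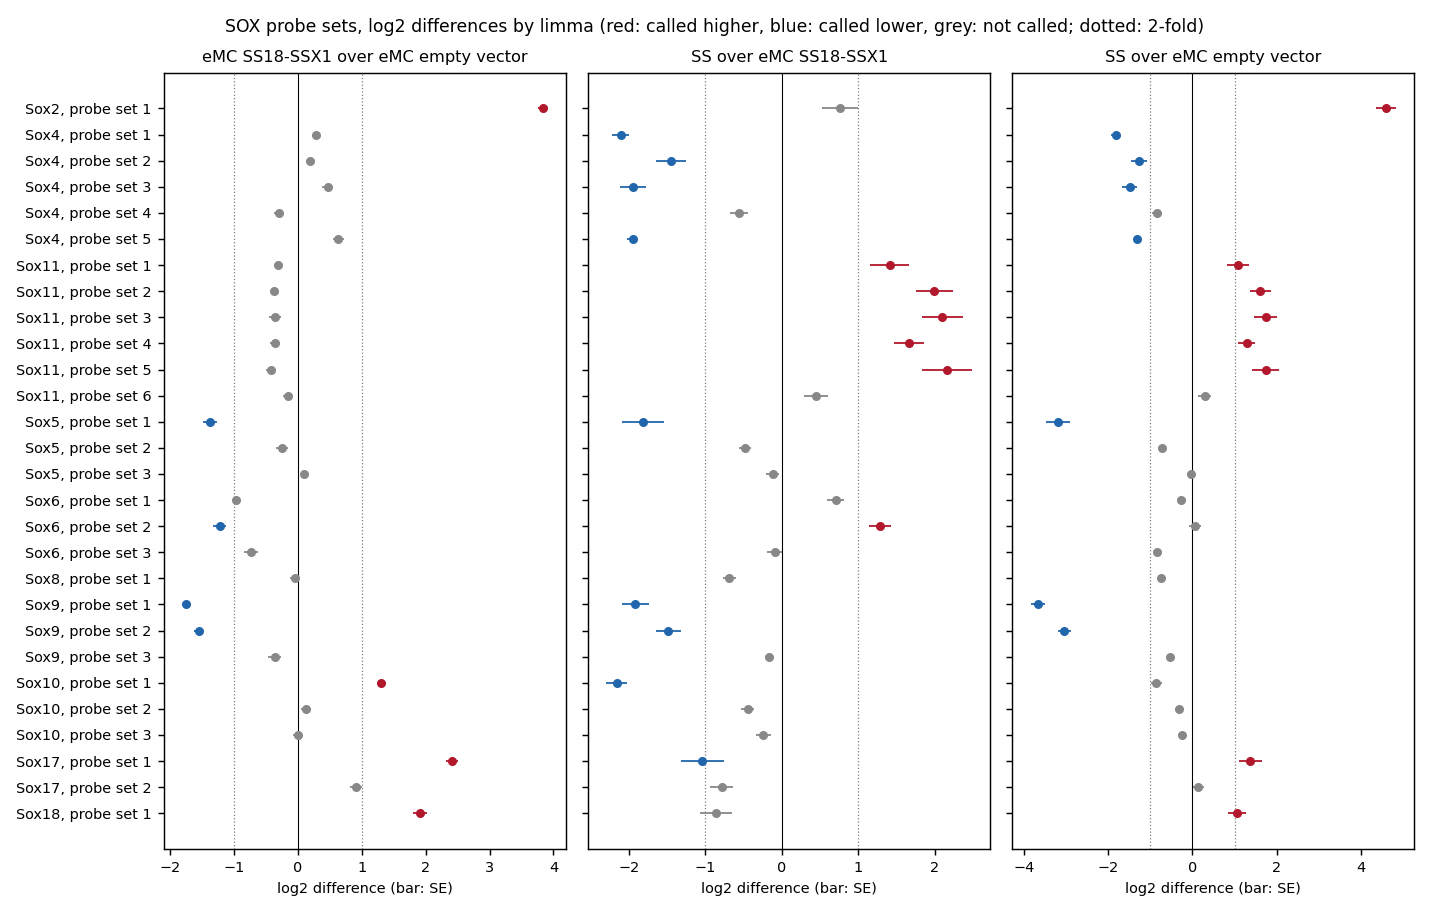
Log2 difference (horizontal axis) with its limma SE for each of the 28 tested SOX probe sets (vertical axis) in eMC SS18-SSX1 over eMC empty vector, SS over eMC SS18-SSX1 and SS over eMC empty vector; red points were called higher, blue lower and grey not called, and dotted lines mark 2-fold. Sox2 stands at 3.84 in the first panel and 4.60 in the third, whereas Sox10 stands at 1.31 in the first and -2.16 in the second.

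The SS tumors were then set against eMC SS18-SSX1, to see which of these levels a grown tumor held. Sox2 differed by less than 2-fold, Sox11 was higher, and Sox4, Sox5, Sox9, Sox10 and Sox17 were lower. Of 28 probe sets, 15 were called (53.6%), 6 higher and 9 lower, against 19% of all probe sets tested, and none of the 15 overlapped. This contrast sets tissue against cultured cells as well as a tumor against transduced cells, which cannot be told apart, and it shares the SS arrays with every other tumor contrast below.

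Sox2 ran from 8.73 to 10.55 in the SS tumors, with a median of 9.75. It was 8.91 to 9.10 in eMC SS18-SSX1, inside the range of the tumors. The difference of 0.76 (SE 0.23, adjusted p = 0.0097, limma) was under 2-fold. Against eMC empty vector the same tumors differed by 4.60 (SE 0.24, adjusted p = 1.7e-11), or 24.2-fold. Against the 6.47, 7.10, 7.07 and 7.14 of the Normal tissue mix they differed by 2.79 (adjusted p = 2.3e-08), or 6.94-fold. The lowest tumor lay above every array of the mix and of the empty vector.

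Sox11 and Sox4, both of subgroup C, went opposite ways in tumors. Sox11 ran from 8.30 to 10.11 with a median of 9.05 in SS tumors, against 7.68, 7.65, 7.61 and 7.60 in eMC SS18-SSX1. All 12 tumors were above all 4 cultures, and the difference was 1.41 (SE 0.25, adjusted p = 0.00011, limma). Probe sets 2 to 5 of Sox11 differed by 1.99, 2.10, 1.66 and 2.16, and the sixth by 0.45. Sox4 ran from 8.71 to 9.46 with a median of 9.24 in SS tumors, against 11.34, 11.31, 11.28 and 11.22 in eMC SS18-SSX1. Again no array overlapped, and the difference was -2.11 (adjusted p = 4.8e-11), with -1.45, -1.95 and -1.95 in probe sets 2, 3 and 5 and -0.56 in probe set 4.

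The same split stood against eMC empty vector, where 15 of 28 probe sets were called, 8 higher and 7 lower, against 19.2% of all probe sets tested, and 14 of the 15 did not overlap. Sox11 differed by 1.09 (SE 0.25, adjusted p = 0.0012, limma) on its brightest probe set and by 1.61, 1.74, 1.29 and 1.74 on the next 4, and Sox4 by -1.82, or 3.53-fold lower. Against the Normal tissue mix, with 4.67, 4.97, 5.21 and 4.59, Sox11 differed by 4.18 (SE 0.26, adjusted p = 1.9e-10) or 18.1-fold, the largest of the family there. Sox4 averaged 9.18 in SS tumors, against 9.97, 10.04, 10.04 and 10.01 in the mix, a difference of -0.83 (adjusted p = 7.9e-06) under 2-fold. Among immature neuron genes 4 of 8 were higher in SS tumors than in eMC empty vector and 0 lower, where 23.2% of all genes were called, led by Stmn2, a tubulin regulator of growing neurites, with 5.79, then Stmn3 with 3.54 and Nefm with 3.49.

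A ratio of 3′ to 5′ signal moved with the tumor contrasts of Sox11. The log2 3′ to 5′ ratio of Gapdh, a sign of RNA degradation or short labelling, averaged 0.85 in SS tumors (0.33 to 1.43) and -0.18 to 0.06 in the other 8 groups. With this ratio added to the fit, a choice made once the values were known, the brightest Sox11 probe set differed by 1.11 from eMC SS18-SSX1 (adjusted p = 0.056, limma) and by 0.84 from eMC empty vector (adjusted p = 0.092), neither of which was called. Under quantile normalization the difference from eMC empty vector was 0.98, just under 2-fold.

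**Figure D3:**
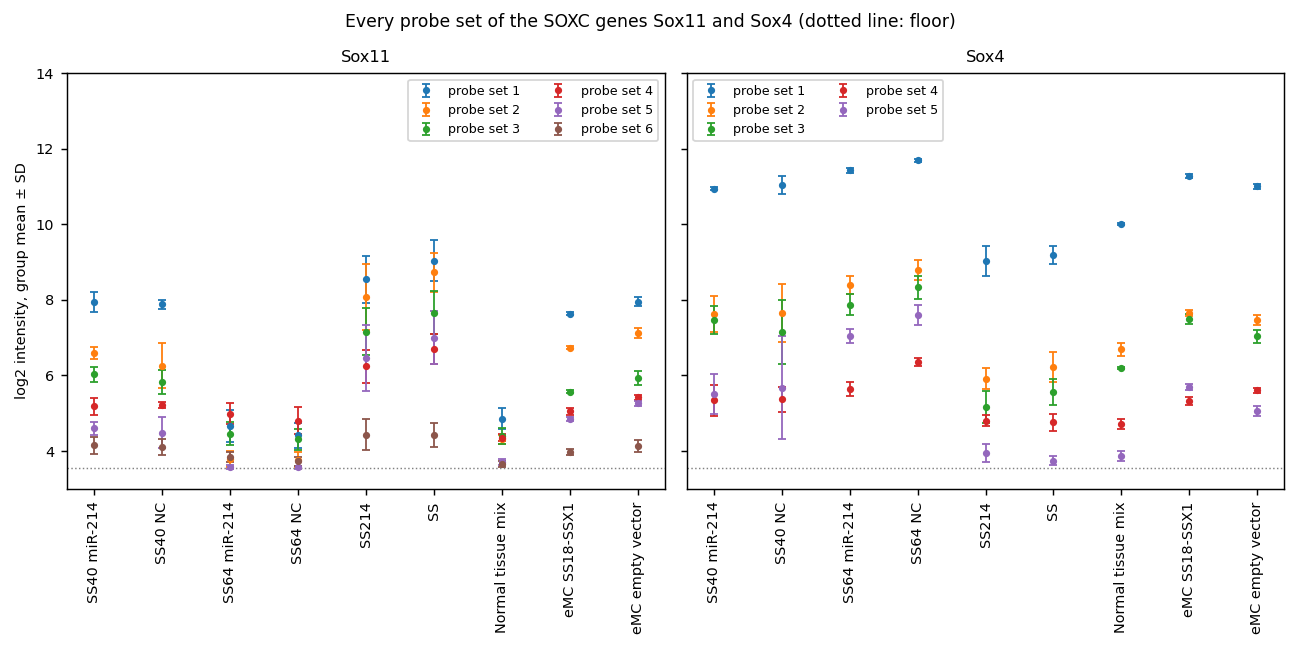
Group mean ± SD of log2 intensity (vertical axis) of every Sox11 and Sox4 probe set across the 9 groups (horizontal axis). The brightest Sox11 probe set averages 9.04 in SS tumors, 4.86 in the Normal tissue mix and 4.41 in SS64 NC, whereas the brightest Sox4 probe set averages 9.18 in SS tumors and 11.70 in SS64 NC.

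Most probe sets of a gene followed its brightest one across the group means. Over the 9 group means, Sox11 probe sets 2 to 6 correlated with the brightest at r = 0.77 to 0.97 and Sox4 probe sets 2 to 5 at 0.85 to 0.98. For Sox9 the values were 0.97 and 0.90, for Sox10 0.93 and 0.84, for Sox6 0.98 and 0.69, and for Sox17 0.95. The lowest value was that of the third Sox5 probe set with r = -0.16, where the second had 0.92. These are descriptions over the same 9 groups. In a single contrast probe sets of a gene could still part, as those of Sox10 and Sox4 did in eMCs.

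The cartilage trio went lower still in tumors, with 1 exception. Sox9 ran from 5.37 to 6.54 with a median of 5.91 in SS tumors, below the 7.69 to 7.99 of eMC SS18-SSX1 and the 9.44 to 9.70 of eMC empty vector. The difference was -1.91 from eMC SS18-SSX1 and -3.66 (SE 0.18, adjusted p = 5.9e-12, limma) from eMC empty vector, or 12.7-fold lower than the empty vector. Sox5 ran from 3.62 to 5.56 with a median of 4.05 in SS tumors, near the floor. It differed by -1.81 from eMC SS18-SSX1 and by -3.19 from eMC empty vector, or 9.1-fold lower than the empty vector. All 20 cartilage genes were called lower in SS tumors than in eMC empty vector, with a median of -5.42, where 23.2% of all genes were called. Col9a1 differed by -8.32, Cnmd by -8.07 and Matn3 by -7.81, and the list summed to 1660 to 2530 in SS tumors and 50966 to 51910 in eMC empty vector. Col2a1 was still at 9.24 on average in SS tumors, 5.08 above the Normal tissue mix.

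Sox6 did not follow. On the brightest probe set it ran from 7.61 to 8.23 with a median of 7.79 in SS tumors, against 8.14 to 8.16 in eMC empty vector and 7.13 to 7.27 in eMC SS18-SSX1. The tumors lay between the cultures and overlapped the empty vector arrays. The second Sox6 probe set averaged 7.76 in SS tumors, 6.48 in eMC SS18-SSX1 and 6.20 in the Normal tissue mix, so it was called higher by 1.28 and by 1.56 in these contrasts, and it differed by 0.06 from eMC empty vector. SOX6 is known to set fiber type in skeletal muscle, so the muscle genes are given beside it. Of 18, 16 were higher and 0 lower in SS tumors than in eMC empty vector (median 5.26), where Sox6 was not called, and the list summed to 17554 to 71897 in SS tumors, 2992 to 3152 in eMC SS18-SSX1 and 907 to 964 in eMC empty vector. The muscle list was 63489 to 64891 in the mix. There the second Sox6 probe set was lower than in tumors, while the brightest averaged 7.58, against 7.88 in SS tumors, a difference under 2-fold.

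Sox10 did not hold in tumors. It ran from 4.72 to 5.63 with a median of 5.01 in SS tumors, against 7.09 to 7.29 in eMC SS18-SSX1. The difference of -2.16 (SE 0.13, adjusted p = 2.1e-10, limma) made it 4.46-fold lower. Probe sets 2 and 3 of Sox10 differed by under 2-fold, averaging 4.59 and 4.03 in SS tumors and 5.04 and 4.27 in eMC SS18-SSX1. On the brightest probe set the tumors were also 0.85 below eMC empty vector (adjusted p = 2.6e-05), under 2-fold, and -1.02 under quantile normalization. Of the Schwann and glial genes 1 was higher and 5 lower in SS tumors than in eMC SS18-SSX1, where 22.8% of all genes were called, among them Erbb3 with -1.96, Egr2, a myelination factor, with -1.86, and S100b, a glial calcium binding protein, with -4.12. Ngfr went the other way from Sox10 and averaged 10.04 in SS tumors, against 8.95 in eMC SS18-SSX1. Sox8 was 0.69 below eMC SS18-SSX1 and 0.74 below eMC empty vector in tumors, at an average of 3.90, close to the floor.

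Sox17 and Sox18 averaged between the eMC groups in tumors. Sox17 ran from 4.17 to 6.37 with a median of 5.52 in SS tumors, against 6.38 to 6.77 in eMC SS18-SSX1 and 3.97 to 4.21 in eMC empty vector. It was 1.04 lower than in eMC SS18-SSX1 (adjusted p = 0.0037, limma) and 1.37 higher than in eMC empty vector (adjusted p = 0.00028), where the lowest tumor overlapped the cultures. Both values come from the probe set with an x in its name. The second Sox17 probe set differed by -0.78 from eMC SS18-SSX1 and by 0.13 (adjusted p = 0.45) from eMC empty vector, with overlap against the empty vector, and neither was called. The lower call rested on 1 culture, since without eMC SS18-SSX1 replicate 3 the difference was -0.95, and with the Gapdh ratio in the fit it was -0.58 (adjusted p = 0.37). Sox18 ran from 4.81 to 6.43 with a median of 5.44 in SS tumors, and differed by -0.86 from eMC SS18-SSX1 and by 1.05 (adjusted p = 0.00032) from eMC empty vector. That last call was lost without empty vector replicate 4 (0.92), under quantile normalization (0.98) and with the Gapdh covariate (0.83).

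Against the Normal tissue mix, 11 of 28 SOX probe sets were called in SS tumors, 8 higher and 3 lower, against 18.6% of all probe sets tested, and none of the 11 overlapped. Beside Sox2 and 5 Sox11 probe sets, the second probe sets of Sox6 and Sox9 were higher, by 1.56 and 1.19. The 3 lower were the endothelial factors. Sox17 averaged 5.46 in SS tumors, against 8.62, 8.61, 8.62 and 8.66 in the mix, a difference of -3.17 (adjusted p = 1.7e-08, limma) or 8.97-fold lower, and its second probe set differed by -1.93. Sox18 averaged 5.50 in SS tumors, against 7.71, 7.79, 7.65 and 7.74 in the mix, and was 4.65-fold lower in tumors. Of 15 endothelial genes 0 were higher and 12 lower (median -1.64), where 25.1% of all genes were called, and Sox7, outside the 10 members, averaged 4.59 in SS tumors and 7.70 in the mix. Sox21, a repressor of subgroup B2, was higher by 1.36.

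From tumor to tumor, Sox17 and Sox18 tracked endothelial genes and Sox6 tracked muscle genes. The relations, 10 in all and 5 in each tumor group, were tested by permutation with 100000 resamples, two-sided, with adjustment over the 10. In the 12 SS tumors the mean of the 15 endothelial genes correlated with Sox17 at r = 0.79 (adjusted p = 0.01) and rho = 0.73 (adjusted p = 0.028), and r was 0.74 without the 2 tumors farthest from the median. For Sox18 it was r = 0.73 (adjusted p = 0.017) and rho = 0.65 (adjusted p = 0.045), but r was 0.17 without tumors 5 and 23, so this relation rested on those 2. In the 13 SS214 tumors Sox17 had r = 0.82 (adjusted p = 0.0019), rho = 0.85 (adjusted p = 0.0027) and 0.77 without the 2 farthest tumors. Sox18 had r = 0.91 and rho = 0.92 (adjusted p = 0.0003 for each) and 0.86 without the 2 farthest. Whether the relations differ between tumor groups was not tested.

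Sox6 correlated with the mean of the 18 muscle genes at r = 0.75 (permutation, adjusted p = 0.015) and rho = 0.72 (adjusted p = 0.028) in SS tumors, and at r = 0.63 (adjusted p = 0.035) and rho = 0.58 (adjusted p = 0.057) in SS214 tumors. Without the 2 farthest tumors r was 0.68 in SS and 0.56 in SS214. The muscle mean itself ran from 8.76 to 11.31 in SS tumors and from 7.77 to 11.90 in SS214 tumors, and whether the amount of muscle tissue in a tumor sets its Sox6 level was not tested. Sox10 did not pass with the Schwann and glial genes, at r = 0.06 in SS (adjusted p = 0.96) and -0.42 in SS214 (adjusted p = 0.22). Sox9 did not pass with the cartilage genes in SS, at r = -0.01 (adjusted p = 0.98), and in SS214 it had r = 0.38 (adjusted p = 0.25) with rho = 0.62 (adjusted p = 0.045). Without the 2 tumors farthest from the median of the list, r for Sox9 was 0.50 in SS and 0.70 in SS214, so the values over all tumors depended on those 2 in each group, and r for Sox10 was -0.09 in SS and -0.40 in SS214.

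**Figure D4:**
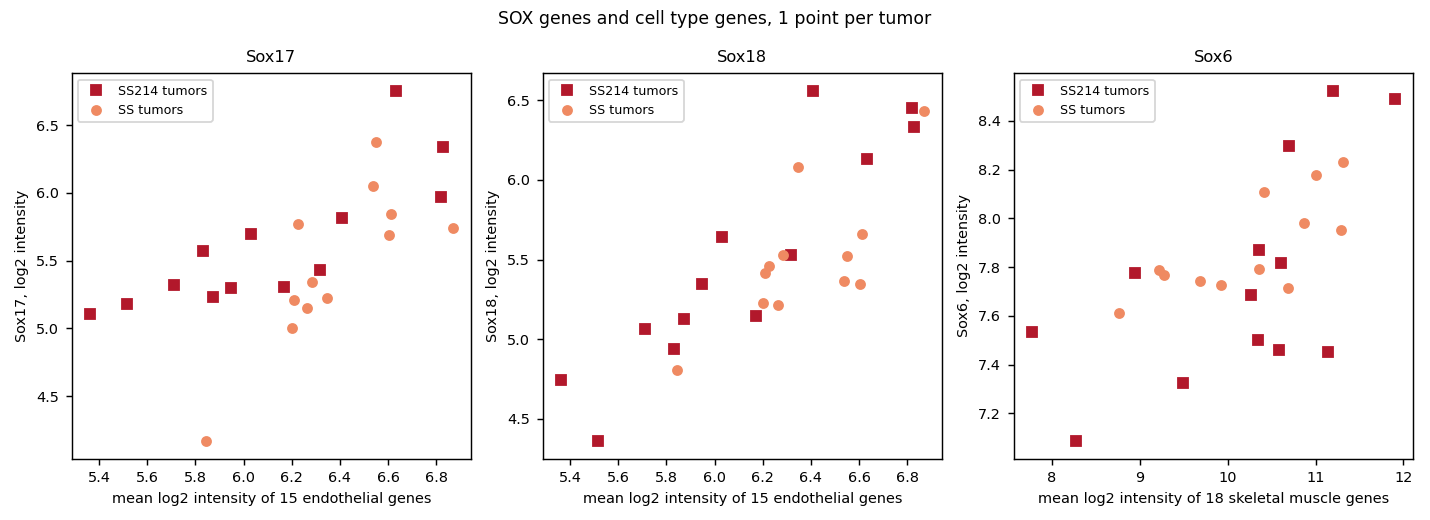
Log2 intensity of Sox17 and Sox18 (vertical axes) against the mean log2 intensity of 15 endothelial genes (horizontal axes), and of Sox6 against the mean of 18 skeletal muscle genes; each point is 1 tumor, squares for SS214 and circles for SS. Sox17 rises with the endothelial mean at r = 0.82 in SS214 and 0.79 in SS tumors.

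miR-214 was tested in tumors and in the 2 lines, and no SOX probe set was called in any of these contrasts. Between SS214 and SS tumors, 0 of 28 were called by limma and 0 by the methods' t-test, against 2.5% of all probe sets. An unadjusted p under 0.05 was found for 11. The share of all probe sets under that rule was not counted, here and below. In this contrast it cannot be smaller than the share at the adjusted p, given next, so the 11 are not read as a result. The adjusted p alone was passed by 4 of the 28, against 39.4% of all probe sets. Those 4 were the second Sox6 probe set, which ran from 5.70 to 8.29 (median 6.96) in SS214 and from 7.44 to 8.44 (median 7.68) in SS and differed by -0.77 (SE 0.23, adjusted p = 0.0081), Sox11 probe set 4 with -0.47, and Sox4 probe sets 3 and 5 with -0.39 and 0.20. All 4 overlapped between the groups. Sox2 ran from 9.42 to 10.50 (median 9.89) in SS214 tumors and from 8.73 to 10.55 (median 9.75) in SS tumors, a difference of 0.20 (adjusted p = 0.32).

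Lung genes marked 4 SS214 tumors. The mean of 5 lung genes was 7.81, 5.93, 6.51 and 8.15 in SS214 tumors 13 to 16 and 3.73 to 4.99 in the other 9 SS214 tumors and 3.59 to 4.33 in the SS tumors. Without those 4, left out once their values were known, the second Sox6 probe set was lower in SS214 by 1.03 on the log2 scale (adjusted p = 0.00059, limma) and was called. It was then 1 of 28 called, against 3.24% of all probe sets. The Gapdh ratio also differed between the groups, at 0.06 ± 0.14 in SS214 and 0.85 ± 0.37 in SS (SD, n = 13 and 12). With this ratio as a covariate 0 of 28 SOX probe sets were called.

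In SS40 cells with miR-214, 0 of 27 SOX probe sets were called by limma and by the methods' t-test, against 0.16% of all probe sets, and 3 had an unadjusted p under 0.05. Sox2 measured 3.85, 3.74, 4.99 and 5.04 in SS40 miR-214, against 3.55, 3.55, 3.64 and 3.55 in SS40 NC, where 3 of 4 arrays were at the floor. The groups did not overlap, but the difference of 0.84 (SE 0.28, adjusted p = 0.34) did not pass. In SS64 cells 0 of 26 were called by either test, against 0.193%, with 7 at an unadjusted p under 0.05. At the adjusted p alone, where 9.54% of all probe sets passed, 4 of the 26 passed. These included Sox4, which measured 11.47, 11.50, 11.40 and 11.36 in SS64 miR-214 and 11.74, 11.71, 11.66 and 11.68 in SS64 NC, a difference of -0.27 (SE 0.04, adjusted p = 0.00063). Its probe set 4 measured 5.82, 5.39, 5.72 and 5.67 in SS64 miR-214 and 6.43, 6.22, 6.45 and 6.34 in SS64 NC (-0.71), and probe set 5 differed by -0.56. Sox4 probe sets 1, 4 and 5 did not overlap between the groups. The remaining one was the brightest Sox6 probe set with -0.23 (adjusted p = 0.029). It ran from 7.31 to 7.46 in SS64 miR-214 and from 7.56 to 7.67 in SS64 NC, again without overlap. The test of whether the response differed between the lines called 0 of 28, against 0.156% of all probe sets, with 5 at an unadjusted p under 0.05.

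The 2 lines differed from each other in many SOX genes. Of 28 SOX probe sets, 12 were called between SS40 NC and SS64 NC, 5 higher and 7 lower in SS40, against 9.71% of all probe sets, and none of the 12 overlapped. Sox2, Sox6, Sox10 and 3 Sox4 probe sets were lower in SS40, and Sox11 and Sox9 were higher. The Sox4 calls on probe sets 2 and 3 rested on SS40 NC replicate 2, without which the differences were -0.76 and -0.78, under 2-fold, where all arrays gave -1.13 and -1.18. Probe set 3 was also lost without SS64 NC replicate 2 (-1.08, adjusted p = 0.054, limma). The brightest Sox4 probe set differed by -0.65 and was not called, and probe set 5, with -1.93, stayed called without any 1 array. Sox11 probe set 5 was called higher once SS40 NC replicate 2 was left out, at 1.12 in place of 0.92. Both lines were sampled once as a line, so what belongs to SS40 or SS64 and what to the tumor each came from cannot be told apart.

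Sox2 measured 3.55, 3.55, 3.64 and 3.55 in SS40 NC, against 10.74, 10.74, 10.74 and 10.73 in SS64 NC. The difference of -7.17 (SE 0.06, adjusted p = 1.3e-13, limma), 144-fold, is limited by the floor on the SS40 side. SS40 NC was likewise 6.17 below the SS tumors, whose lowest value was 8.73, while SS64 NC was 1.00 above them, under 2-fold. Sox10 measured 5.04, 5.21, 5.10 and 5.10 in SS40 NC and 9.68, 9.70, 9.50 and 9.52 in SS64 NC, a difference of -4.49 (SE 0.08, adjusted p = 7.7e-12) or 22.4-fold lower. Probe sets 2 and 3 of Sox10 differed by under 2-fold, averaging 5.04 and 4.40 in SS40 NC and 5.85 and 4.84 in SS64 NC. On the brightest probe set, no tumor of the series reached the Sox10 level of SS64, which was 23.4-fold above the SS tumors. Schwann and glial genes went the same way, with 0 higher and 7 lower of 12 in SS40 NC than in SS64 NC (median -1.42), where 12.4% of all genes were called. Erbb3 averaged 5.04 in SS40 NC and 10.49 in SS64 NC, and Ngfr and Cryab, a small heat shock protein, differed by -5.24 and -4.26. Their summed intensity was 777 to 844 in SS40 NC and 8595 to 8961 in SS64 NC.

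Sox11 measured 7.98, 7.71, 7.94 and 7.91 in SS40 NC and 4.18, 4.10, 4.58 and 4.78 in SS64 NC, a difference of 3.47 (SE 0.15, adjusted p = 9.1e-09, limma) or 11.1-fold, with 2.49 and 1.51 in the next 2 probe sets. SS64 NC was 24.7-fold below the SS tumors and SS40 NC 1.15 below them on the log2 scale, and of the lines SS40, at 7.89, was the one near the 7.63 of eMC SS18-SSX1. Stmn2, of the immature neuron genes, was 7.52 higher in SS40 NC. Sox6 measured 5.59, 5.53, 5.66 and 5.20 in SS40 NC and 7.56, 7.67, 7.67 and 7.62 in SS64 NC, a difference of -2.14 (adjusted p = 2.5e-08). Sox9 was 1.16 higher in SS40 NC, a call that was lost without SS64 NC replicate 4 (0.99), while the second Sox9 probe set differed by 1.44. Cartilage genes called were 0 of 19.

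Both lines were also set against the SS tumors, with 14 of 28 probe sets called in SS40 NC (4 higher, 10 lower), against 23% of all probe sets, and 16 of 28 in SS64 NC (7 higher, 9 lower), against 21.6%. Of these, 12 and 15 did not overlap. Sox4 was higher in both lines, by 1.86 in SS40 NC and 2.52 in SS64 NC. SS64 NC, at 11.66 to 11.74, lay above the 11.22 to 11.34 of eMC SS18-SSX1 and the 10.93 to 11.09 of eMC empty vector, and SS40 NC, at 10.70 to 11.19, overlapped eMC empty vector. Sox17 was lower than in SS tumors by 1.63 in SS40 NC and by 1.35 in SS64 NC, and Sox18 by 1.10 and 1.05, but the Sox18 differences were not called under quantile normalization (-0.99 in SS40, -0.92 in SS64). All 18 muscle genes were lower in each line than in tumors, as were 10 of 15 endothelial genes in SS40 NC and 12 of 15 in SS64 NC, where 27.6% (SS40 NC) and 26% (SS64 NC) of all genes were called, with Cdh5 at the floor in both.

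**Figure D5:**
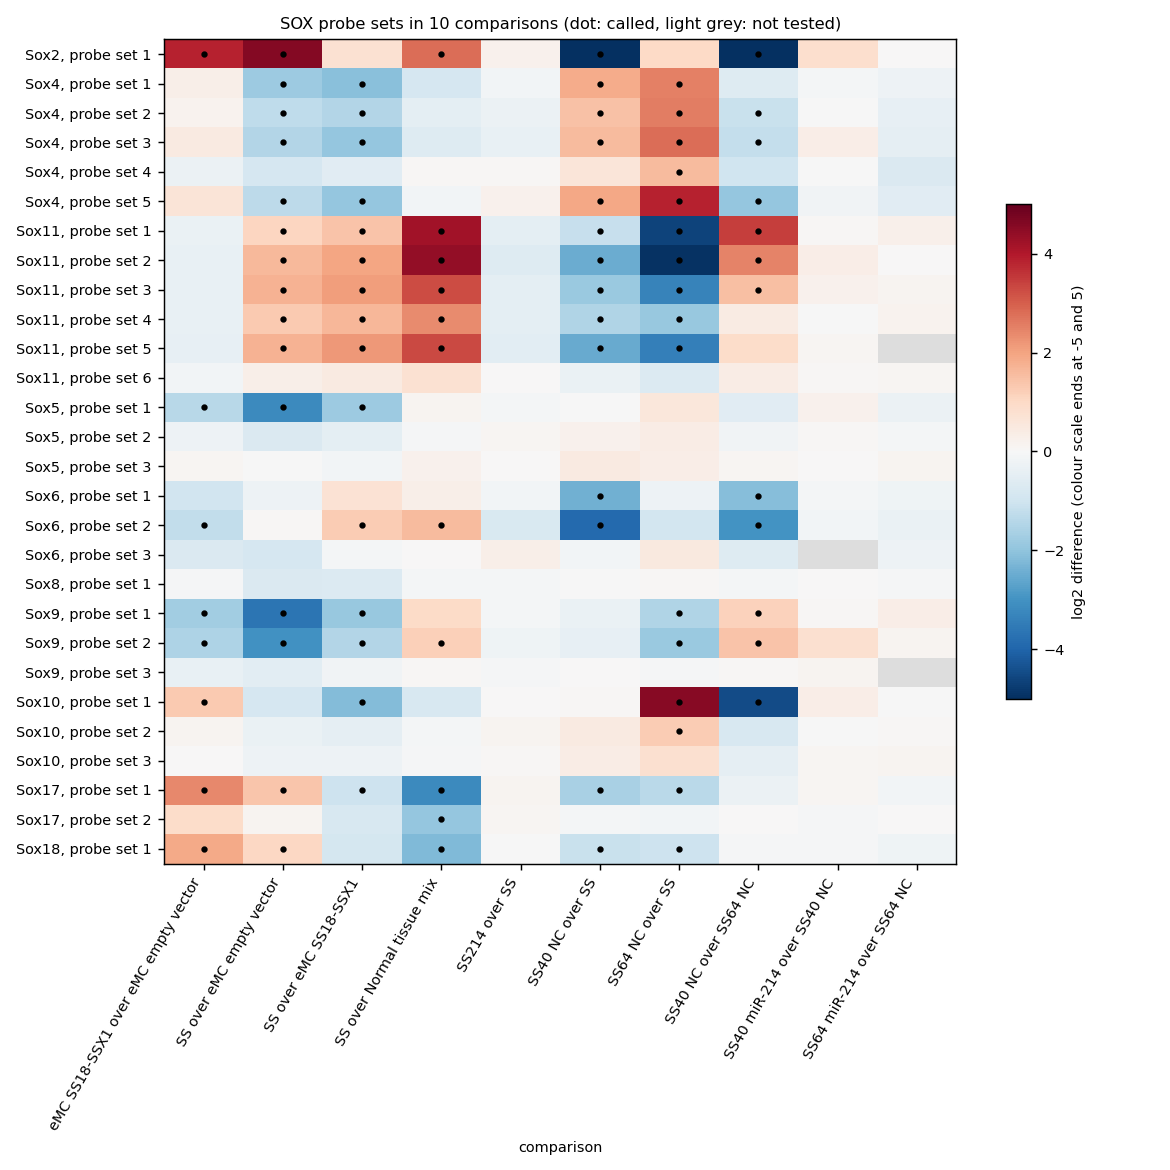
Log2 differences of the 28 tested SOX probe sets (rows) in 10 comparisons (columns), as a colour scale, with a dot where the probe set was called. The SS214 over SS, SS40 miR-214 over SS40 NC and SS64 miR-214 over SS64 NC columns hold no dot, and SS40 NC over SS64 NC holds 12.

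The groups were also ordered by the mean of each member. Sox2 ran from SS64 miR-214 (10.75 ± 0.10) and SS64 NC (10.74 ± 0.01) through SS214 (9.94 ± 0.32), SS (9.74 ± 0.50), eMC SS18-SSX1 (8.98 ± 0.08), Normal tissue mix (6.94 ± 0.32), eMC empty vector (5.14 ± 0.18) and SS40 miR-214 (4.41 ± 0.71) to SS40 NC (3.57 ± 0.04), as mean ± SD with the n given above. Neighbours that overlapped in that order were the 2 SS64 groups, SS214 with SS, SS with eMC SS18-SSX1, and eMC empty vector with SS40 miR-214. Sox11 was highest in SS tumors (9.04 ± 0.54) and SS214 tumors (8.54 ± 0.63), and SS40 miR-214, eMC empty vector and SS40 NC (7.95, 7.95 and 7.89) overlapped next, above eMC SS18-SSX1 (7.63). Sox4 had SS64 NC (11.70 ± 0.04) at the top and SS (9.18 ± 0.24) and SS214 (9.04 ± 0.40) at the bottom, an order in which the tumors stood at opposite ends for the 2 genes. Sox10 had the SS64 groups at the top (9.60 and 9.59), then eMC SS18-SSX1 (7.21), and SS214 (5.06) and SS (5.05) at the bottom, overlapping with SS40 NC (5.11).

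For the other members, Sox9 stood in steps without overlap in eMC empty vector (9.60 ± 0.11), eMC SS18-SSX1 (7.85 ± 0.12) and the tumors (5.94 ± 0.35 in SS), and ended with SS64 NC (4.45 ± 0.35). Sox17 and Sox18 had the Normal tissue mix at the top (8.63 and 7.72), then eMC SS18-SSX1 (6.50 and 6.36), then both tumor groups, while eMC empty vector and the lines overlapped at the bottom (3.84 to 4.11 and 4.25 to 4.46). Sox5 stood clear in eMC empty vector (7.51) and eMC SS18-SSX1 (6.14), and its other 7 groups averaged 4.20 to 4.87 with overlapping neighbours. Sox8 averaged 3.79 to 4.64 in all groups, with the eMC groups above the rest.

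Across the 9 group means, the genes most like each of 5 members were listed among 9845 genes whose means spanned at least 1. For Sox2 they were Ngfr (r = 0.99), Igfbp3 (0.98), Sema3b (0.97), Nr2f1 (0.96) and Jag1 (0.96). For Sox11 they were Zfpm2, Ntpcr, Efna5, Cand2 and Twist1 (r = 0.97 to 0.99), and for Sox10 Nkd2, Plxnd1, Trim24, Gm29811 and Dennd2a (0.98 to 0.99). For Sox9 they were Obsl1, Chst12, Cd28, D230025D16Rik and Chad (0.96 to 0.99). Nearest to Sox17 was Sox18 itself (r = 0.997), ahead of Tmem204, Cldn5, Cdh5 and Fgd5 (0.99 each).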

How the data were processed

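The authors hybridized biotin-labelled cRNA from total RNA to mouse GeneChip arrays, and deposited a linear intensity for each probe set on each array, summarized and scaled by them beforehand. MAS5 is named in the submitters' notes with no version, and the study's methods name GeneSpring, so the summary method is known by name only. The labels call the tissue mix mouse and the methods call it human, and it was taken as mouse. Of 45141 probe sets, 104 controls were left out. Genes were named through the platform annotation, and old symbols were replaced through their gene ID.

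Intensities below 11.7 (log2 3.55), which is the median over arrays of the 20th percentile, took that value as a floor before log2. The median intensity of an array was close to that floor, which compresses changes of faint probe sets, and 4 arrays a group limit the precision. Probe sets above the floor on at least 4 of the arrays compared were fitted with limma 3.58.1 (lmFit, eBayes with trend) in R 4.3.3, on the 2 groups compared, with Benjamini-Hochberg adjustment over all probe sets tested. A gene took its brightest probe set. The fits were tested on simulated data. Tumor relations were tested by permutation in Python 3.11.15 with scipy 1.17.1.

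The members and gene lists were chosen with earlier results of these data known. The genes named are the 10 members, up to 3 called genes of each list with the largest difference, and the 5 genes most like each of Sox2, Sox9, Sox10, Sox11 and Sox17. Other genes named (Sox7, S100b in eMCs, Ngfr in tumors, Tie1, Pou5f1, Col2a1, Sox2ot and the lung and Gapdh probe sets) were chosen after their values were seen. Arrays of the same replicate number shared deviations from the group means in SS64 (correlations of 0.22 to 0.35 in the 4 pairs). Unlike numbers did so as well. SS64 miR-214 replicates 1, 2, 3 and 4 had 0.38, 0.26, 0.38 and 0.13 with SS64 NC replicates 2, 1, 4 and 3. All pairs of 1 or 2 with 3 or 4 were negative, at -0.43 to -0.19. The deviations there thus split replicates 1 and 2 from 3 and 4 and did not follow the number. Same-number arrays did not share deviations in every pair of eMCs or SS40. The numbers therefore could not be shown to pair arrays, and the labels do not say that they do. The fits reported used no pairing, and the replicate number as a block was an alternative.

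Alternatives tried were a floor at percentile 40 or none, quantile normalization, fitting without the filter, 1 joint fit of all arrays, the methods' t-test, no fold threshold, the replicate block, leaving out replicates, and, added after seeing the data, the Gapdh 3′ to 5′ ratio as a covariate and leaving out SS214 tumors 13 to 16. The human fusion transcript and miR-214 itself were not analysed here.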

Additional observations from a re-analysis of the deposited data

Results flagged for a closer look

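In 5 of 70 sets of 4 arrays (the brightest probe set of a member in 1 group), 1 array stood apart from the other 3 by more than Dixon's test allows, where chance gives about 1 set in 20. Sox2 was 6.47 in Normal tissue mix replicate 1, below the 7.07 to 7.14 of the others. Sox2 was 3.64 in SS40 NC replicate 3, against the floor in the other 3. Sox4 was 10.70 in SS40 NC replicate 2, against 11.14 to 11.19. Sox5 was 4.73 in SS40 NC replicate 1, against 4.16 to 4.20. Sox6 was 7.27 in eMC SS18-SSX1 replicate 2, against 7.13 to 7.16.

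SS40 NC replicate 2 was also low on other SOX probe sets, with 6.53, 5.93 and 3.97 on Sox4 probe sets 2, 3 and 5 and 5.37 on Sox11 probe set 2. Its log2 3′ to 5′ ratio of Actb was 0.81, against 0.16 to 0.21 on the other SS40 NC arrays. For Gapdh the ratio was 0.19, against -0.20 to -0.004. Whether these ratios bear on its SOX values was not tested.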

How the results depend on the processing

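With no fold threshold, the count of SOX probe sets called was 23 (9 higher, 14 lower) for eMC SS18-SSX1 over eMC empty vector, 24 (8, 16) for SS over eMC empty vector, 25 (9, 16) for SS over eMC SS18-SSX1, 19 (12, 7) for SS over Normal tissue mix, 4 (1, 3) for SS214 over SS, 4 (0, 4) for SS64 miR-214 over SS64 NC and 21 (7, 14) for SS40 NC over SS64 NC, by construction more than with it. In the same order, 41.3%, 64.5%, 59.9%, 55.3%, 39.4%, 9.54% and 39.7% of all probe sets tested passed without the fold threshold. The SOX probe sets tested were 28 in each comparison, but 26 in the SS64 miR-214 one. Without SS214 tumors 13 to 16, and with the fold threshold, the SOX count was 1 for SS214 over SS, against 3.24%. Leaving out 1 array of a group of 4 gave 8 to 9 for eMC SS18-SSX1 over eMC empty vector, 14 to 15 for SS over each eMC group, 11 to 12 for SS over Normal tissue mix, 13 to 14 for SS40 NC over SS, 15 to 17 for SS64 NC over SS, 11 to 13 for SS40 NC over SS64 NC, and 0 to 0 for miR-214 in either line and for the difference between the lines. With the replicate number as a block, the counts were 8 for the eMC comparison and 0 for miR-214 in SS40, in SS64 and between them, and the block changed no call. The other counts stayed within 1.5 times of those reported, and no direction was reversed.

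For single genes on their brightest probe set, 816 of 860 alternative values kept direction and call, 17 lost the call, 27 gained it and 0 reversed. Losses not given above were Sox18 in SS40 NC over SS without SS40 NC replicate 4 (-0.99) and in SS64 NC over SS without SS64 NC replicate 3 (-0.96), and, with the Gapdh ratio as a covariate, Sox11 in SS40 NC over SS (-0.93), Sox9 in SS64 NC over SS (-0.90) and Sox18 in both line contrasts (-0.81 in SS40, -0.76 in SS64). That covariate added Sox2 in SS64 NC over SS (1.29) and Sox18 in SS over eMC SS18-SSX1 (-1.14). In eMCs Sox6 passed 2-fold under quantile normalization (-1.06). The cause was not tested. A difference that involves a group near the floor, such as Sox2 in SS40, is bounded by the floor.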

Other observations

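Sox2ot, a long non-coding transcript in whose span Sox2 lies, was looked up after the Sox2 values were seen, on its 1 probe set. It averaged 4.45 ± 0.33 in eMC SS18-SSX1 (SD, n = 4) and was at the floor on all 4 eMC empty vector arrays, so the log2 difference of 0.90 (adjusted p = 1.7e-05, limma) is a lower bound. Sox2 itself was high in the tumors, where Sox2ot was at the floor in 11 of 13 SS214 and 10 of 12 SS tumors. Among the lines, Sox2ot averaged 4.40 ± 0.05 in SS64 miR-214 and 5.15 ± 0.38 in SS64 NC (SD, n = 4 each), a difference of -0.75 (adjusted p = 0.009), while Sox2 averaged 10.75 in SS64 miR-214 and 10.74 in SS64 NC. It was at the floor on every SS40 array. The strand of the probe set was not looked up.

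Some SS40 miR-214 arrays carried signal of probe sets that mark SS64. For 10 probe sets chosen after seeing the values, below 4 on every SS40 NC array and above 9 on every SS64 NC array, the median was 3.60, 3.60, 4.41 and 4.59 on SS40 miR-214 replicates 1 to 4 and 3.55 on each SS40 NC array. Sox2 meets this rule and is among the 10, so it is in part compared with itself. It was 3.85, 3.74, 4.99 and 5.04 on the same SS40 miR-214 arrays, where replicates 3 and 4 also had the higher median. The 10 probe sets were not alike, running from 3.55 to 8.50 on replicate 3 and from 4.08 to 8.94 on replicate 4. The part of this signal in the Sox2 difference was not tested.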
